A study of Mus musculus with 64 samples.

Results

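Levels of 8 genes of the B cell lineage were followed in cultured mouse CD4 T cells: Ighm, Cd79a, Cd79b, Ms4a1, Cd22, Pax5, Cr2 and Fcer2a. They were taken by symbol from a table of 23134 genes, in which Cr2 has a row under each of 2 gene IDs, so that 9 rows were used. The 8 genes were chosen with their levels in these same libraries already known, so every value and difference given for them is a description and none carries a test. The cells were CD4 T cells from spleens of C57BL/6J mice, and all 4 genotypes, WT included, carried the Cd4-Cre-ERt2 transgene and were treated with 4'-OH-tamoxifen. DKO cells were Rc3h1/2 fl/fl (both Roquin genes floxed), KO cells were Zc3h12a fl/fl (the Regnase-1 gene floxed), TKO cells had all these floxed alleles, and WT cells had the Cre transgene alone. The Cre is driven by Cd4, so cells that do not express Cd4 in a culture would keep the floxed genes. Th1 cultures were started with anti-CD3/28 (40 h) and went on in IL-2 for 2 days, after which the cells were left untreated (0 h) or restimulated with anti-CD3/28 for 1, 2 or 4 h. Each of the 16 groups has 4 libraries, 64 in all. Whether a group's 4 libraries are separate mice or cultures is not in the labels, so an SD given here measures the spread between libraries, which may be technical.

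A mature B cell carries an antigen receptor built from immunoglobulin heavy and light chains, and in naive cells the heavy chain is IgM or IgD. Ighm encodes the constant part of the IgM heavy chain. Cd79a and Cd79b encode Ig-alpha and Ig-beta, the signalling pair without which the receptor does not reach the surface. Cd22 encodes a sialic acid-binding inhibitory receptor of B cells, Ms4a1 encodes CD20, Cr2 encodes the complement receptor CD21, and Fcer2a encodes CD23, a low-affinity receptor for IgE. Pax5 encodes the transcription factor that commits progenitors to the B lineage and holds up Cd79a. Roquin-1 and Roquin-2 (Rc3h1, Rc3h2) and the endonuclease Regnase-1 (Zc3h12a) bind stem-loops in messenger RNAs and lower their levels.

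Promoters of Cd79a and Cd22 are shown because one of these genes stayed at a few reads in nearly all libraries and the other was high in DKO and TKO libraries at 0 h. RefSeq start sites on GRCm38.p6 gave 300 bases around the start of 5 of the 8 genes, with 3 windows for Fcer2a. None was matched for Ighm, Cd79b and Ms4a1. Each window was searched on both strands for ATGCAAAT, the octamer bound by Oct factors, and for TCCCNNGGGA, a core bound by the B cell factor EBF1. The octamer is present in 1.74% of all 32851 such windows and the EBF1 core in 0.904%. One match was found among the windows of these genes, the EBF1 core in the Cd22 window, printed in capitals below. It is a match of letters, which says nothing of binding. The Cd79a window lies at chr7:24897247-24897546 on the plus strand and the Cd22 window at chr7:30878979-30879278 on the minus strand, each read 5′ to 3′ along its gene. The Cd22 window is around a RefSeq start that lies inside the gene as GENCODE M21 bounds it, not at its annotated 5′ end.
Cd79a: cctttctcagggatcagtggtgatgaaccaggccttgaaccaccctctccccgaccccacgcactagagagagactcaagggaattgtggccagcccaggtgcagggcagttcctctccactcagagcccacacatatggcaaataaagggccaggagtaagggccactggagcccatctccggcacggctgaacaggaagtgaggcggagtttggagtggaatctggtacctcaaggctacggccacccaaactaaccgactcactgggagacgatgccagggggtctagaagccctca
Cd22: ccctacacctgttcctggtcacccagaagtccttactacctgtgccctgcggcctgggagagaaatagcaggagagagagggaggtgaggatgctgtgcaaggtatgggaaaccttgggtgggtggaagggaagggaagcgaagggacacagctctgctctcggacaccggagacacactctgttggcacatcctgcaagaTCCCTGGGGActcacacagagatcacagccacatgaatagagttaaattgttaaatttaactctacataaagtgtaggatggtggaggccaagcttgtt

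Per library, 5369873 to 11666566 reads were recovered (median 7720298). Levels are given as normalized reads, which are reads scaled to a common library size of 7988563, so that 1 normalized read is close to 1 read in a library of median depth. Intervals given for counts sum the reads of a group's libraries and treat them as independent counts. They leave out the spread between libraries. PCR reads without molecular identifiers are also not independent molecules, so the intervals can be too narrow. Among the targeted genes, Zc3h12a at 1 h had 462 to 720.0 normalized reads in KO libraries and 429.8 to 508.8 in TKO libraries, against 808.3 to 1066 in WT libraries, while Rc3h1 at 2 h had 613 to 695.8 in DKO libraries and 623.3 to 743 in TKO libraries, against 1043 to 1431 in WT libraries. Reads of Rc3h2 were not lower in the Roquin knockouts (at 1 h 760.7 to 876.6 in DKO and 794.4 to 1016 in TKO libraries, against 547.8 to 751.8 in WT libraries), and gene-level counts do not separate exons inside a deleted part from the rest. The CD4 T cell genes on the marker list (Cd3e, Cd4, Trac and 6 others) summed to between 5697 and 14620 normalized reads in every library.

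A set of 4 libraries, all of KO cells, stood apart and are set beside each result they touch. They are 1 at each time (place 3 of the list at 0, 1 and 4 h, place 2 at 2 h), and were picked after the data were seen, as the libraries with at least 3 reads of Igkc, the gene of the kappa light chain. They had 4 to 13 Igkc reads, against 0 to 2 in the other 60 libraries, 39 of which had 0. The MHC class II gene H2-Aa had 13 to 21 reads in them, against 0 to 7 in the others. Of the members, Cd79a had 7 to 25 reads in these 4 libraries, against 0 to 7 in the other 60, Ms4a1 had 6 to 19, against 0 to 5, and Fcer2a had 11 to 23, against 0 to 9. The highest values of Cd79b and Cd22 were in other libraries, although Cd22 was also higher in these 4 than in the other KO libraries of each time. Cd79b had 1 to 6 reads, against 0 to 24 in the others, and Cd22 had 6 to 22 reads, against 0 to 45. Ighm had 361 to 1661 reads in these libraries, within the 86 to 3894 of the others. The same 4 libraries also had the most reads of the CD8 T cell genes Cd8a and Cd8b1, whose sum was 283.5 to 410.8 normalized reads, against 34.32 to 221.4 in the other KO libraries. What part any of these libraries' other cells had in a result was not tested, and in bulk RNA fewer cells of a type and less RNA per cell cannot be told apart.

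**Figure D1:**
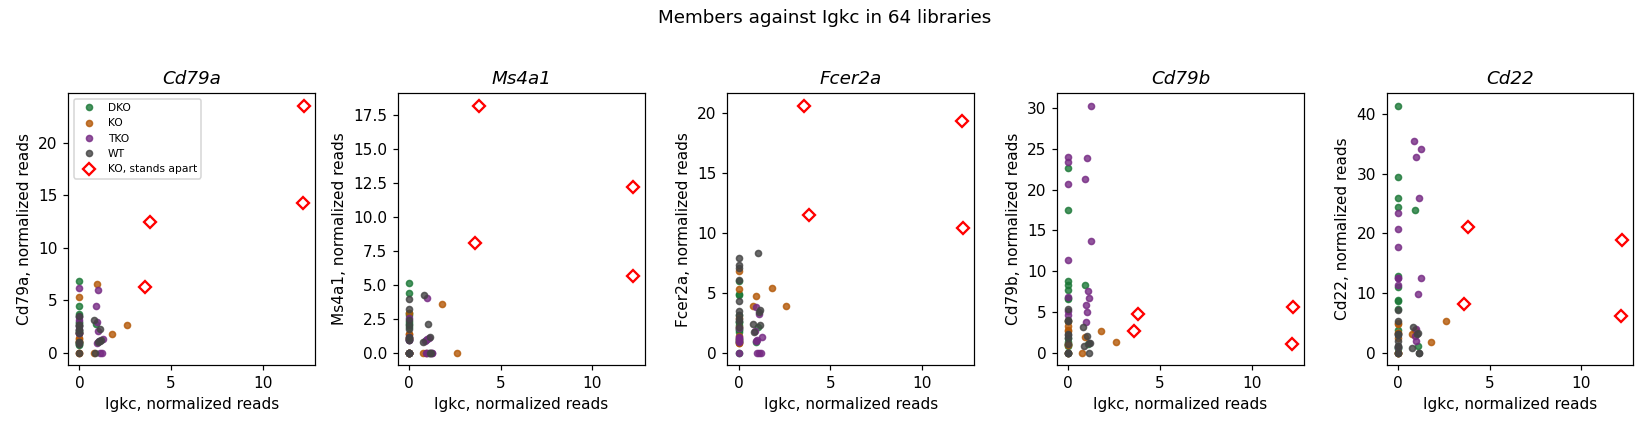
Normalized reads of 5 members (vertical axes) against Igkc (horizontal axes), 1 point per library, coloured by genotype, with the 4 KO libraries that stand apart as red diamonds. Those 4 lie to the right of all others and carry the highest Ms4a1 and Fcer2a, while the highest Cd79b and Cd22 values lie at the left edge, in TKO and DKO libraries with 0 to 2 Igkc reads.

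Ighm (ENSMUSG00000076617, chr12:113418558-113422730, minus strand, GRCm38) was by far the most abundant member, and it had reads in all 64 libraries. In untreated cells it had 2107, 1535, 1649 and 1424 normalized reads in the DKO libraries, 2067, 1600, 1564 and 2401 in the KO libraries and 3455, 2751, 3675 and 4063 in the TKO libraries, against 876.1, 913.2, 1851 and 1055 in the WT libraries. All 4 TKO libraries were above every WT library, whereas the third WT library lay inside the DKO and KO ranges. The mean was lower at each later time in every genotype. In TKO cells it averaged 3486 ± 551, 2657 ± 496, 1318 ± 354 and 588.8 ± 85.1 normalized reads at 0, 1, 2 and 4 h (SD, n = 4 at each time). In WT cells the averages were 1174 ± 458, 975.3 ± 315, 451 ± 208 and 115.8 ± 42.7 at the same times (SD, n = 4). DKO cells averaged 1679 ± 300, 1384 ± 219, 637.1 ± 82.9 and 203.3 ± 45.0, and KO cells 1908 ± 401, 1660 ± 339, 847.5 ± 166 and 287.3 ± 58.7 (SD, n = 4 at each time).

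In all 4 genotypes the 4 h libraries of Ighm lay below all 0 h libraries. The log2 difference of 4 h minus 0 h was -3.05 in DKO, -2.73 in KO, -2.56 in TKO and -3.32 in WT cells (SE 0.24 for each, from the fit over all genes). Set against WT at the same time, TKO cells were higher by 1.63, 1.47, 1.60 and 2.39 on the log2 scale at 0, 1, 2 and 4 h, with no overlap of libraries at any time. KO cells were higher by 1.34 at 4 h, where their 211.7 to 342.8 normalized reads lay above the 80.24 to 177.9 of WT, and libraries of the 2 genotypes overlapped at the earlier times. DKO and WT libraries overlapped at every time, with differences of 0.57, 0.54, 0.59 and 0.85. Without the KO library that stands apart, the KO minus WT difference was 0.83 at 0 h and 1.28 at 4 h, so Ighm in KO cells changed little with it. Per kilobase of exon, untreated TKO cells had 1848 ± 292 normalized reads of Ighm, 14.4 ± 6.96 of Cd79b and 2.00 ± 1.90 of Cd79a (SD, n = 4), and untreated WT cells had 622.4 ± 243, 2.06 ± 0.835 and 1.25 ± 0.631 of the same genes (SD, n = 4). The light chain genes Igkc and Iglc2 had at most 2 reads in any library outside the 4 that stand apart.

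**Figure D2:**
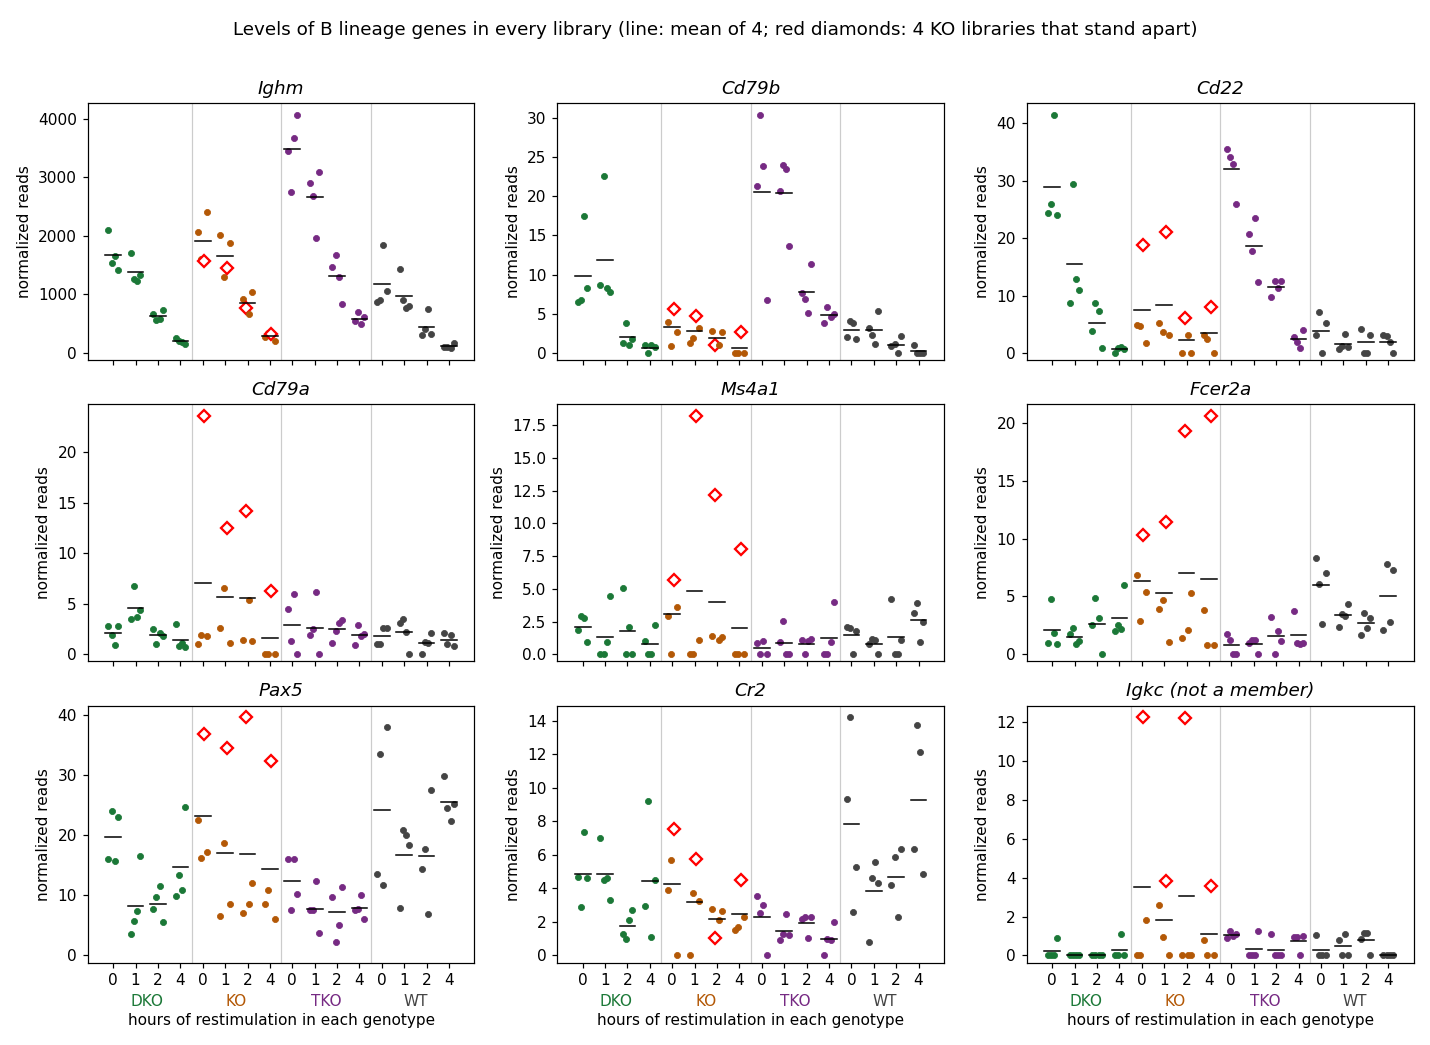
Normalized reads (vertical axes) of the 8 members and of Igkc in each of the 64 libraries, by genotype and hours of restimulation; points are libraries, lines are means of 4, and red diamonds are the 4 KO libraries that stand apart. Ighm is lower at each later time in all genotypes and is highest in TKO cells, Cd22 and Cd79b are high in DKO and TKO libraries at 0 and 1 h, and Cd79a, Ms4a1, Fcer2a and Pax5 peak in red diamonds.

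Cd79b (ENSMUSG00000040592, chr11:106311341-106314762, minus strand) was higher in DKO and TKO than in WT libraries at 0 h. Its partner Cd79a (ENSMUSG00000003379, chr7:24897381-24902197, plus strand) had too few reads to show whether it moved with Cd79b. At 0 h Cd79b had 6.56, 6.73, 17.5 and 8.29 normalized reads in DKO libraries, 3.91, 0.947, 5.65 and 2.70 in KO libraries and 21.3, 30.3, 23.9 and 6.75 in TKO libraries, against 2.07, 4.05, 3.88 and 1.76 in WT libraries. Every DKO and TKO library was above every WT library, and KO libraries overlapped with WT. At 1 h the DKO and TKO libraries again lay above all WT libraries, with 11.8 ± 7.20 and 20.4 ± 4.74, against 2.98 ± 1.80 in WT (SD, n = 4 each). DKO library 2 held 20 of the 41 DKO reads at 1 h. At 4 h all 4 TKO libraries still had Cd79b reads, at 3.77 to 5.81 normalized reads, whereas 3 of 4 WT libraries had 0. The fourth WT library had 1 read, so that 20 reads in TKO against 1 in WT gave a ratio of 20.4 with an exact counting interval of 3.26 to 846 (95%). TKO minus WT was 2.33, 2.51, 2.17 and 2.26 on the log2 scale at 0, 1, 2 and 4 h (SE 0.45). Cd79b passed the filter on low values only through DKO and TKO libraries. It had at most 5 reads in any WT library and 6 in any KO library, so no support is drawn from these differences.

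Cd79b was lower at 2 and 4 h than at 0 h in DKO and TKO cells. DKO cells averaged 9.76 ± 5.20, 11.8 ± 7.20, 2.00 ± 1.29 and 0.702 ± 0.489 normalized reads at 0, 1, 2 and 4 h, and TKO cells 20.6 ± 9.96, 20.4 ± 4.74, 7.73 ± 2.65 and 4.79 ± 0.853 (SD, n = 4 at each time). In DKO cells 3 reads at 4 h against 42 at 0 h gave a ratio of 0.0683 (0.0135 to 0.214). In WT cells 1 read at 4 h against 11 at 0 h gave a ratio of 0.0822 (0.00191 to 0.566). Cd79a had 183 reads over all 64 libraries and its group means were between 1.11 and 7.05 normalized reads. The highest of these means belonged to KO cells at 0, 1 and 2 h, and without the libraries that stand apart the KO means were 1.56, 3.41, 2.69 and 0 at 0, 1, 2 and 4 h. At 1 h the 4 DKO libraries had 3.49, 6.79, 3.67 and 4.42 normalized reads of Cd79a, against 3.13, 3.46, 2.23 and 0 in WT libraries, which did not overlap but were 16 reads against 9. Untreated TKO cells had 12 reads of Cd79a, against 7 in untreated WT cells, a ratio of 1.74 (0.63 to 5.2). The same ratio for Cd79b was 7.18 (3.8 to 15), so the intervals overlapped. In KO cells, 4 h against 0 h gave 0.201 (0.0747 to 0.468) for Cd79a and 0.185 (0.0341 to 0.663) for Cd79b. Those KO ratios include the libraries that stand apart.

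Cd22 (ENSMUSG00000030577, chr7:30865402-30880342, minus strand) was high in DKO and TKO cells before and early in restimulation. At 0 h it had 24.4, 26.0, 41.4 and 23.9 normalized reads in DKO libraries, 4.89, 4.74, 18.8 and 1.80 in KO libraries and 35.5, 34.1, 32.9 and 25.9 in TKO libraries, against 3.11, 7.10, 0 and 5.29 in WT libraries. The DKO and TKO libraries lay above all WT libraries. In KO cells the third library, the one that stands apart, was high, and without it the KO mean was 3.81 ± 1.74 (SD, n = 3), against 3.87 ± 3.05 in WT (SD, n = 4). The log2 difference from WT at 0 h was 2.94 in DKO and 3.11 in TKO cells (SE 0.64). Cd22 passed the filter on low values through DKO and TKO libraries and KO libraries that stand apart. It had at most 7 reads in any WT library, so no support is drawn from these differences. As ratios of reads to WT, DKO cells had 6.99 (4.14 to 12.6) at 0 h and 10.5 (4.55 to 30) at 1 h, and TKO cells 7.78 (4.61 to 14) at 0 h and 12.4 (5.39 to 35) at 1 h, where WT had 16 and 6 reads. Of the 55 DKO reads at 1 h, 26 were in DKO library 2. Over 0, 1, 2 and 4 h, DKO cells averaged 28.9 ± 8.35, 15.5 ± 9.42, 5.19 ± 3.52 and 0.666 ± 0.466, and TKO cells 32.1 ± 4.28, 18.6 ± 4.71, 11.5 ± 1.32 and 2.42 ± 1.32 (SD, n = 4 at each time). WT cells stayed between 1.59 and 3.87 on average. At 4 h, TKO and WT libraries overlapped, as did DKO and WT libraries. In DKO cells 3 reads at 4 h against 124 at 0 h gave a ratio of 0.0231 (0.00471 to 0.0692). Other B lineage lists at 0 h did not all go the same way in these DKO and TKO libraries. The sum of Igkc and Iglc2 was 0 to 0.962 normalized reads in DKO libraries (median 0.929) and 0.995 to 2.66 in TKO libraries (median 1.76). WT libraries had 0 to 1.04 (median 0), and the ranges overlapped. These sums rest on a few reads per library at most, so no difference is read from the medians. At 1 h they were 0 in every DKO library and 0 to 1.241 in TKO libraries, against 0 to 1.115 in WT libraries. At 0 h, antigen presentation genes summed to 87.55 to 195.8 in DKO and 86.62 to 261.5 in TKO libraries, against 40.15 to 83.68 in WT. The coreceptor and surface list gave 375.9 to 671.1 and 911.2 to 1215 at 0 h, against 238.3 to 322.3. By group means at 0 h, Tnfrsf13b was the largest part of that list in all of these genotypes. Fcrla and Cd24a came next in DKO and WT cells, and Fcrl1 and Cd24a in TKO cells. Signalling sums lay above WT in TKO libraries only, and transcription factor and plasma cell sums overlapped with WT.

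**Figure D3:**
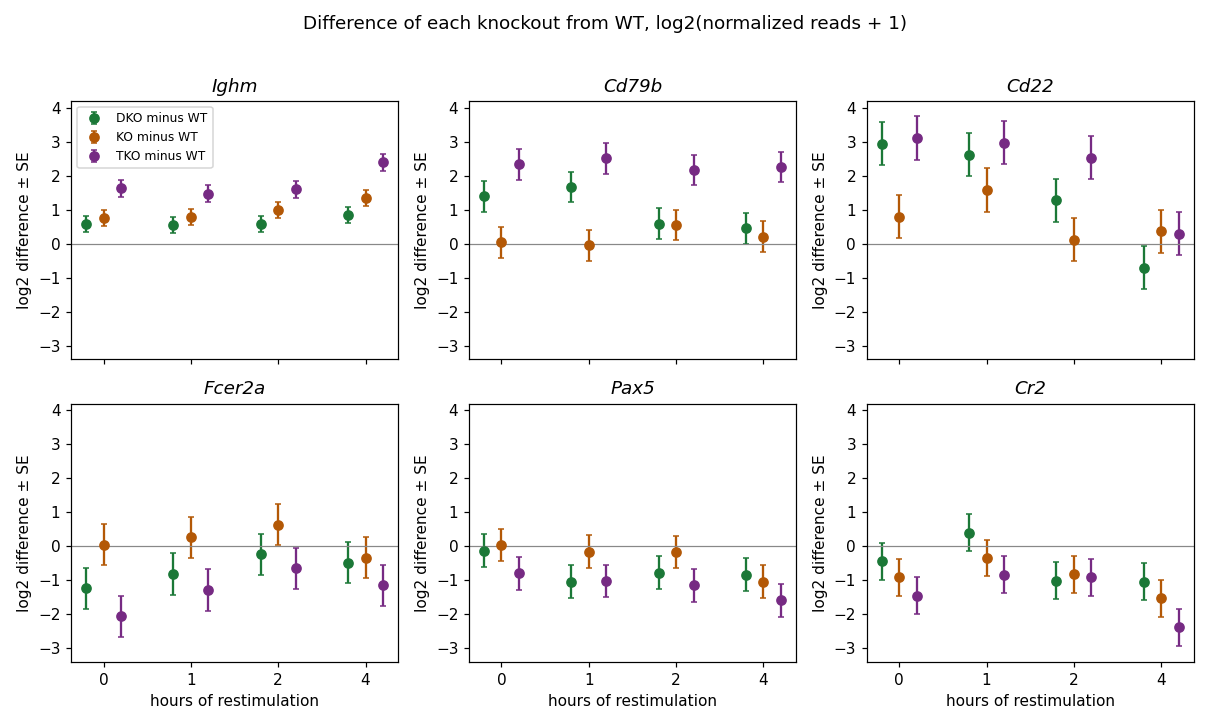
Log2 difference of each knockout from WT (vertical axes, log2 of normalized reads plus 1, with SE) at 0, 1, 2 and 4 h for the 6 members kept by the filter on low values, DKO, KO and TKO from left to right at each time. Ighm and Cd79b are above 0 at all times in TKO cells, the Cd22 difference shrinks to 0.30 at 4 h, and Pax5, Cr2 and Fcer2a are below 0 in TKO cells; these differences shrink toward 0 where reads are few.

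Pax5 (ENSMUSG00000014030, chr4:44524757-44710487, minus strand) ran the other way. At 4 h it had 9.85, 13.4, 10.8 and 24.6 normalized reads in DKO libraries, 8.49, 10.9, 32.2 and 6.09 in KO libraries and 7.54, 7.75, 10.04 and 6.03 in TKO libraries, against 29.7, 24.5, 22.4 and 25.1 in WT libraries. The TKO libraries were all below the WT libraries. In KO cells the library that stands apart was above the WT range and the other 3 were below it, and the KO mean without it was 8.48 ± 2.39 (SD, n = 3). At 0 h the TKO libraries had 7.58 to 15.97 normalized reads and the WT libraries 11.7 to 37.9, which overlap. The antisense gene Gm12462 inside Pax5 had 25% as many reads, and the strand setting of the counting is not given in the sources used here. Pax5 spans 185.7 kb, against a median span of 26.6 kb over 15911 of the genes tested.

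Cr2 and Fcer2a were low in all groups. Means in TKO cells were below those in WT cells at each time, for Fcer2a and for the Cr2 row described next. TKO libraries lay below all WT libraries for that Cr2 row at 2 and 4 h and for Fcer2a at 0 and 1 h. At the other times they overlapped. For the Cr2 row under ENSMUSG00000026616 (chr1:195136811-195176716, minus strand), TKO libraries at 4 h had 0, 0.968, 0.913 and 2.01 normalized reads and KO libraries 1.54, 1.67, 4.47 and 2.29, against 6.37, 13.7, 12.1 and 4.85 in WT libraries. Both knockouts lay below all WT libraries, and the log2 difference from WT was -1.52 for KO and -2.38 for TKO cells (SE 0.54). This row passed the filter on low values through WT libraries with 9 to 14 reads and a DKO library at 4 h with 11 reads. No KO or TKO library reached the minimum, so no support is drawn from these differences. The second Cr2 row, ENSMUSG00000094924, is absent from the GENCODE M21 annotation, and it held 19 reads in all, with 0 in 49 libraries. Fcer2a (ENSMUSG00000005540, chr8:3681737-3694175, minus strand) at 0 h had 0.937, 4.81, 1.84 and 0.921 normalized reads in DKO libraries, 6.84, 2.84, 10.4 and 5.41 in KO libraries and 1.77, 1.26, 0 and 0 in TKO libraries, against 8.29, 6.08, 2.59 and 7.05 in WT libraries. All TKO libraries were below the lowest WT library, on 3 reads against 24, a ratio of 0.127 (0.0244 to 0.417). Fcer2a had at most 9 reads in the 60 libraries that do not stand apart, so it passed the minimum of 10 reads at the median depth in 4 libraries through the KO libraries that do. No support is drawn from the differences of Fcer2a. Its KO means of 6.36, 5.28, 7.04 and 6.51 normalized reads at 0, 1, 2 and 4 h were 5.03, 3.22, 2.96 and 1.82 without those libraries.

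Ms4a1 (ENSMUSG00000024673, chr19:11249675-11266241, minus strand) had 120 reads over all libraries and 0 in 23 of them. Its highest values were 18.2 normalized reads at 1 h, 12.2 at 2 h and 8.05 at 4 h, each in the KO library that stands apart, against 0 to 5.09 in all libraries of the other genotypes. The overlapping gene 4930526L06Rik on the other strand had 477.5% as many reads as Ms4a1, so reads of the pair cannot be told apart without a strand setting. KO means without those libraries were 2.18, 0.357, 1.26 and 0 normalized reads at 0, 1, 2 and 4 h, against 1.47, 0.763, 1.32 and 2.62 in WT cells.

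Counted over the 9 rows, 3 were higher in every TKO library than in every WT library at 0 h (Ighm, Cd79b and Cd22) and 1 was lower (Fcer2a). Among all 16140 genes tested, 13.7% were higher and 9.67% lower by that measure. The 9 rows include 3 that failed the filter on low values (Cd79a, Ms4a1 and the second Cr2 row). The shares cover only genes that passed it. At 1 h the same 3 were higher and Fcer2a was lower (all genes 13.7% and 10.5%), and at 2 h the same 3 were higher and Cr2 was lower (15.6% and 10.9%). At 4 h 2 rows were higher in TKO cells (Ighm and Cd79b) and 2 were lower (Pax5 and Cr2), where all genes gave 29.1% and 16.5%. For DKO minus WT at 0 h, 2 rows were higher (Cd79b and Cd22) and 0 lower, where all genes gave 6.78% and 2.96%. At 1 h 3 rows were higher (Cd79a, Cd79b and Cd22) and Fcer2a was lower (all genes 8.86% and 3.87%), and no row separated at 2 h (9.55% and 2.49%) or 4 h (10.8% and 5.97%). For KO minus WT at 4 h, 1 row was higher (Ighm) and 1 lower (Cr2), where all genes gave 24.3% and 13.7%, and no row separated at 0 h (3.26% and 2.26%), 1 h (5.4% and 2.52%) or 2 h (6.68% and 2.66%). Between 4 h and 0 h the rows whose libraries were all lower at 4 h numbered 3 in DKO, 1 in KO, 3 in TKO and 2 in WT cells, where all genes gave 24.9%, 26.1%, 20.7% and 24.7%. No row had all libraries higher at 4 h, where all genes gave 26.1%, 31%, 25% and 21.8%. These rows were chosen on the same libraries, so nothing is read from the counts. The knockouts share the WT libraries, and the times share the 0 h libraries.

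Of the 45 other B lineage genes listed, 39 had a row and 27 passed the filter on low values. These were tested with limma (Benjamini-Hochberg adjustment over 16140 genes, threshold 0.05). The list was drawn up with earlier results of these data known, so its calls and shares are not an independent test. TKO cells at 0 h differed from WT cells most: 13 of the 27 were higher and 3 lower, with a median log2 difference of 1.12, against 0.08 over all genes, of which 19.4% were called higher and 18.1% lower. By role, 6 of 10 coreceptor and surface genes, 3 of 6 signalling genes, 3 of 7 antigen presentation genes and Sdc1 were higher, and the lower ones, named here after their values were seen, were the signalling genes Syk and Bank1 and the transcription factor gene Ebf1. At 4 h 6 were higher and 2 lower in TKO than in WT cells (median 0.47, all genes 0.20, of which 27.5% were called higher and 16.4% lower). DKO cells differed in 1 gene at each of these times, Tnfrsf13b, where 5.37% of all genes were called higher and 2.29% lower at 0 h, and 4.76% and 0.669% at 4 h. KO cells had 3 higher and 0 lower at 0 h (all genes 1.16% and 0.167%) and 6 higher and 3 lower at 4 h (all genes 21.9% and 11.6%). Without the 4 libraries that stand apart, the KO calls at 0 h numbered 1. Summed marker lists of other cells also differed in these comparisons, but their reads were very unevenly spread over genes. Over all libraries, Eomes had 10024 reads in the NK cell list, against 679 for Klrk1 and 35 for Ncr1. Ctss had 23852 in the myeloid list, against 1846 for Emr1 and 19 for Lyz2. Zbtb46 had 2159 in the dendritic cell list, against 663 for Flt3. Those sums mostly follow Eomes, Ctss and Zbtb46 and do not measure numbers of such cells. Sums of the myeloid list (8 of 10 genes with a row) were 522.6 to 576 normalized reads in TKO libraries at 0 h, against 343.8 to 448.1 in WT. At 4 h they were 404.4 to 539.2 in KO and 481.2 to 570.6 in TKO libraries, against 234.2 to 279 in WT. Sums of the NK cell list (6 of 6) were 48 to 85.5 in TKO libraries at 0 h, against 102.2 to 347.7 in WT, and at 4 h 94.1 to 271.7 in KO and 85.8 to 168 in TKO libraries, against 282.3 to 523.7 in WT. The CD8 T cell sum at 4 h was 169.7 to 240.1 in TKO libraries, against 39.2 to 139.3 in WT, and the dendritic cell sum (5 of 6) 37.3 to 57.9 in KO and 46.2 to 52.8 in TKO libraries, against 59.5 to 77.4 in WT. The CD4 T cell sum at 4 h was 7710 to 9565 in KO and 7587 to 9143 in TKO libraries, against 5697 to 6773 in WT. No listed marker with a row was at 0 in all 64 libraries, and the part of these cells in the results was not tested.

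Fcrl1, which encodes an Fc receptor-like surface protein of B cells, had 106.5, 92.2, 97.5 and 246.4 normalized reads in untreated TKO libraries and 21.5, 26.5, 22.6 and 26.1 in KO libraries, against 2.07, 8.11, 3.88 and 12.3 in WT libraries. Neither knockout overlapped with WT, and the log2 difference was 4.26 ± 0.47 in TKO cells (SE, limma adjusted p = 2.7e-10) and 1.94 ± 0.47 in KO cells (SE, limma adjusted p = 0.014). The KO call was lost with voom weights, with only the 2 groups fitted, and without any 1 of 3 libraries (KO library 2, WT library 1 or WT library 3). Tnfrsf13b, which encodes TACI, a receptor for BAFF and APRIL, was higher in all 3 knockouts at both times. At 4 h it averaged 79.4 ± 19.8 normalized reads in DKO cells, 97.5 ± 20.7 in KO cells and 241.0 ± 12.0 in TKO cells, against 30.4 ± 6.92 in WT cells (SD, n = 4 each). The adjusted p from limma was 1.0e-05 for DKO, 2.0e-08 for KO and 2.5e-17 for TKO cells, and no group overlapped with WT. At 0 h the log2 differences were 1.10 in DKO, 0.78 in KO and 2.16 in TKO cells (SE 0.20), with limma adjusted p of 0.00014, 0.029 and 1.4e-12. The KO call at 0 h was lost in 8 of 17 alternatives, the omission of the libraries that stand apart among them.

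Plcg2, the phospholipase that acts below the B cell receptor, averaged 430.7 ± 103 normalized reads in untreated TKO cells, against 86.4 ± 2.68 in WT cells (SD, n = 4 each), a log2 difference of 2.28 ± 0.24 (SE, limma adjusted p = 7.0e-11). Cd72, an inhibitory coreceptor, averaged 33.6 ± 13.5 in TKO and 8.81 ± 6.52 in WT cells at 0 h (SD, n = 4 each, limma adjusted p = 0.0075) and was also higher at 4 h (27.2 ± 21.4 in TKO, against 3.96 ± 3.32 in WT, limma adjusted p = 0.00088). Faim3, the table's symbol for the IgM Fc receptor gene, averaged 21.8 ± 1.44 in KO cells at 4 h, against 5.15 ± 0.740 in WT cells (SD, n = 4 each, limma adjusted p = 1.7e-05). These calls were not particular to 1 knockout. Faim3 was also called higher in TKO cells at 0 and 4 h, and Cd72 and Plcg2 in KO cells at 4 h. Without the libraries that stand apart, the log2 differences were 1.33 and 2.03 for Faim3, 1.94 for Cd72 and 1.21 for Plcg2. Bank1 and Blnk encode adaptors of B cell receptor signalling. At 4 h Bank1 averaged 18.97 ± 5.62 in KO and 10.8 ± 3.64 in TKO cells, against 48.4 ± 8.01 in WT cells, with limma adjusted p of 0.0041 and 4.6e-06. Blnk averaged 1.69 ± 2.02 in TKO cells at 4 h, against 9.70 ± 2.67 in WT cells (limma adjusted p = 0.0015). H2-Aa at 4 h had 22 reads in KO cells, 17 of them in the library that stands apart, and 0 in WT cells. It passed the filter on low values only through the 4 KO libraries that stand apart, with at most 7 reads in any other, so its limma call in KO cells (adjusted p = 0.027), which was lost without them, supports nothing although it is among the 6 counted.

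**Figure D4:**
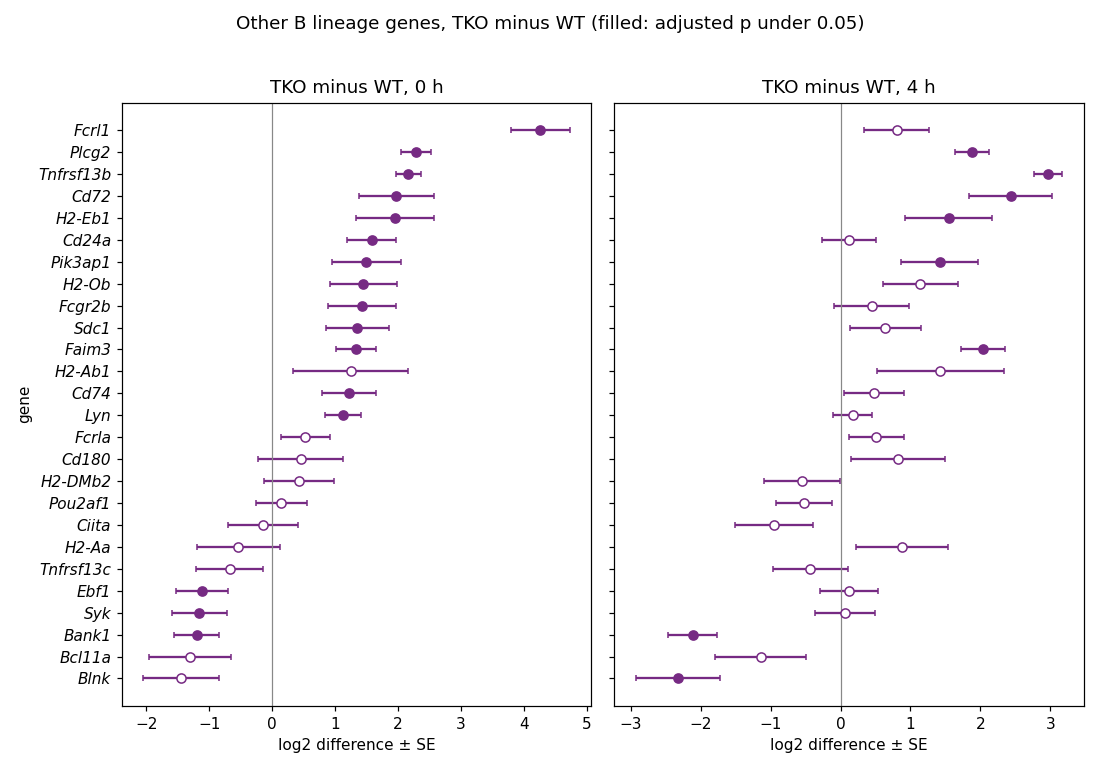
Log2 difference with SE (horizontal axes) of 26 of the 27 other B lineage genes kept, TKO minus WT, at 0 h (left) and 4 h (right); filled points have an adjusted p under 0.05 in limma. At 0 h 13 filled points lie to the right of 0, led by Fcrl1 at 4.26, and 3 to the left; at 4 h the filled points are 6 and 2, led by Tnfrsf13b at 2.97.

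Restimulation raised 4 of these genes in all 4 genotypes: Pou2af1, Cd24a, Sdc1 and Cd74. Pou2af1, a coactivator of octamer-bound promoters, rose to 564.5 ± 78.9 normalized reads at 4 h in DKO cells, against 20.4 ± 7.73 at 0 h, and to 436.4 ± 62.8 at 4 h in WT cells, against 24.3 ± 22.0 at 0 h (SD, n = 4 each), with limma adjusted p of 4.1e-15 and 7.3e-14. It also rose in KO and TKO cells, by 4.11 and 3.77 on the log2 scale (SE 0.40, limma adjusted p of 7.8e-13 and 1.9e-11). Cd24a, which encodes a surface glycoprotein shared by many blood cells, rose by 3.54, 3.45, 2.59 and 4.06 in DKO, KO, TKO and WT cells (SE 0.39), and Sdc1, which encodes the plasma cell marker syndecan-1, by 3.46, 4.43, 2.97 and 3.69 (SE 0.51), with no limma adjusted p above 1.4e-06 for either. Cd74, the invariant chain of MHC class II, which was named after its values were seen, rose by 1.11, 1.56, 1.25 and 1.98 in DKO, KO, TKO and WT cells (SE 0.43, limma adjusted p of 0.024, 0.0015, 0.012 and 7.9e-05). Its 4 h and 0 h libraries overlapped outside WT cells, and the DKO call was lost with the deposited scaling, with voom weights and without DKO library 2 at 0 h or DKO library 3 at 4 h. Tnfrsf13b fell in all 4 genotypes, with log2 differences of -1.89, -1.26, -1.32 and -2.13 (SE 0.20, limma adjusted p of 5.1e-12, 2.9e-07, 1.2e-07 and 1.0e-13). The class II gene H2-Ob also fell in all of them, with -2.02, -2.23, -2.10 and -1.79 (SE 0.54, limma adjusted p of 0.001, 0.00032, 0.00076 and 0.0037). H2-DMb2 averaged 0.479 ± 0.555 at 4 h and 5.90 ± 2.35 at 0 h in TKO cells (SD, n = 4 each, limma adjusted p = 0.00048) and was also called lower in DKO and WT cells, with limma adjusted p of 0.014 and 0.05. H2-Ab1 in DKO cells had 15.1 ± 11.8 at 4 h and 65.2 ± 39.5 at 0 h (limma adjusted p = 0.044), a call lost in 9 of 17 alternatives. Over the 27 genes, 4 h against 0 h gave 6 higher and 7 lower in DKO, 6 and 8 in KO, 5 and 8 in TKO and 6 and 5 in WT cells, where all genes gave 28.3% and 26.9%, 33.1% and 27.6%, 27.2% and 23.1%, and 24.7% and 27.1%.

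Genes with the most similar pattern were sought for each member kept, by Pearson correlation of log2 values. Over the 16 group means Ighm was closest to Arhgef6 (r = 0.991), Acadl (0.991) and Gmfg (0.988), and over the 64 libraries after subtraction of group means to Srebf1 (0.811), Plin3 (0.803) and Pgd (0.801). Cd22 was closest to Fam210b, Yipf2 and Insig2 by group means (0.948, 0.935 and 0.934) and to Arhgap24, Trpm2 and Grb10 within groups (0.688, 0.608 and 0.604). Cd79b was closest to Cul7, Plod1 and Cela1 by group means (0.959, 0.956 and 0.947) and to Tmem231, Gm996 and Nmrk1 within groups (0.576, 0.509 and 0.506). No other member was among these neighbours of Ighm, Cd22 and Cd79b. Pax5 was closest within groups to Shank2, Fam189a1 and Anks1b (0.730, 0.720 and 0.718), genes that span 422.6, 400.5 and 1099.8 kb. By group means it was closest to Vit, Afm and Gli2 (0.957, 0.956 and 0.954), which span 119.3, 34.6 and 219.5 kb. Cr2 was closest within groups to Ptpro, Dcdc2a and Gm609 (0.725, 0.686 and 0.645) and Gm14280 and Rnf182 were among the 3 closest by group means (0.945 and 0.935). The closest gene to Fcer2a within groups was Pax5 (0.623), followed by Plxna2 and Ccl22 (0.550 and 0.537), and by group means Tspan11, 4931428L18Rik and Dnah7a (0.891, 0.878 and 0.873). Long neighbours within groups were not particular to Pax5. Spans were 62.8 to 416.5 kb for those of Cd22, 81.2 to 210.9 for Cr2 and 6.1 to 198.7 for Fcer2a. For neighbours of Ighm they were 15.4 to 23.5 kb, and for those of Cd79b 6.3 to 21.9. Without the 4 libraries that stand apart, Pax5 was no longer among the 3 closest genes to Fcer2a within groups (Intu, Map1b and Tub, 0.523, 0.515 and 0.480), and the 3 closest to Cd79b included Gm15427 and Rpl10a-ps1 (0.597 and 0.589) and none of those given above. Libraries and their depth are shared by all genes in these correlations, and each is the highest among the genes tested.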

How the data were processed

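Total RNA of 64 libraries was sequenced, 4 in each of 16 groups. Per the labels' protocols, RNA was taken with Trizol and libraries were made with a NuGEN kit. The genome build was GRCm38, per the submitters' processing notes. For the aligner, the counting tool and its strand setting, the value is not given in the sources used here. Each gene and group has, per the file headers, a list of 4 normalized counts and a group mean (signal) computed by the authors, which served only as a check. A library is named by its place in a list, since the lists give no replicate number.

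Reads were recovered from the size of 1 step in each library, by which 100% of low values came out whole (tolerance 0.1 read), 5369873 to 11666566 per library. The chi-square per degree of freedom between libraries of a group was 4.52 to 60.13 over 96 pairs, so none was counted as a duplicate. Genes with 10 reads at the median depth (1.3 CPM) in 4 libraries and 15 reads in all were kept (16140). Reads were scaled by trimmed means of M values (trims of 30 and 5 percent), and log2(value + 1) was fitted with limma 3.58.1 in R 4.3.3, trend and robust, 1 mean per group, 48 residual degrees of freedom. SE and adjusted p come from that fit, and fold changes of low genes are understated on this scale. Ratios of read sums have exact (Clopper-Pearson) 95% intervals.

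The fit was tested on simulated data. All genes in them had the same setting for spread beyond counting, and a small set changed, in TKO cells at 0 h only. In most draws the share of false calls was above the nominal level, and p-values of unchanged genes with the lowest levels were slightly too small. Many B lineage genes are at such levels, so adjusted p-values close to 0.05 are to be read with caution. Voom weights came closer to the nominal level, and their counts are given in the closing section. The deposited libraries need not share the simulated settings, so the shares of false calls and the standing of voom weights may not carry over.

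The members and gene lists were chosen with earlier results of these data known. Other B lineage genes were named where they were called and their libraries did not overlap, up to 4 per comparison by size of change. Of the 45 listed, Ighd, Iglc1, Iglc3, Vpreb3, Tnfrsf17 and Igha were not analysed here, and a few named by the rules are not reported here. Lists of other cell types were summed in each library. Over all libraries the sums were 234.2 to 693.9 normalized reads for myeloid genes, 7.58 to 134 for dendritic cell genes, 0 to 10.6 for neutrophil genes, 33.7 to 523.7 for NK cell genes, 27.3 to 410.8 for CD8 T cell genes and 0 to 36.3 for erythroid or platelet genes.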

Additional observations from a re-analysis of the deposited data

Results flagged for a closer look

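Over the 9 rows and 16 groups, 135 pairs with any spread were examined, and in 24 of them 1 library lay far from the other 3 of its group, with a gap above Dixon's 95% critical value for 4 samples. That value gives about 1 in 20 by chance for continuous, normally distributed values. Many of these groups hold a few tied reads, where such gaps arise from counting alone, so the 24 are not compared with that share. Values are normalized reads.

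In 9 of them the high value was in a KO library that stands apart. These were Cd79a in KO cells at 0 h (23.5, against 0.977 to 1.9 in the other 3), Cd79a in KO cells at 4 h (6.26, against 0 in each of the other 3) and Cd79b in KO cells at 4 h (2.69, against 0 in each of the other 3). So were Ms4a1 in KO cells at 1 h (18.2, against 0 to 1.07 in the other 3), Ms4a1 in KO cells at 2 h (12.2, against 1.06 to 1.4 in the other 3) and Ms4a1 in KO cells at 4 h (8.05, against 0 in each of the other 3). So were Cd22 in KO cells at 1 h (21.1, against 3.22 to 5.21 in the other 3), Pax5 in KO cells at 2 h (39.6, against 6.98 to 12 in the other 3) and Fcer2a in KO cells at 4 h (20.6, against 0.761 to 3.86 in the other 3).

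Outside those libraries, high values were found for Cd79a in DKO cells at 4 h (2.95, against 0.745 to 1.08 in the other 3), Cd79b in DKO cells at 0 h (17.5, against 6.56 to 8.29 in the other 3), Cd79b in DKO cells at 1 h (22.6, against 7.73 to 8.73 in the other 3) and Cd79b in WT cells at 4 h (1.06, against 0 in each of the other 3). Others were Cd22 in DKO cells at 0 h (41.4, against 23.9 to 26 in the other 3), Cd22 in WT cells at 1 h (3.34, against 0.783 to 1.15 in the other 3), Fcer2a in DKO cells at 4 h (5.96, against 1.97 to 2.52 in the other 3) and Fcer2a in TKO cells at 4 h (3.77, against 0.913 to 1 in the other 3). The DKO library high for Cd79b at 0 h is also the one high for Cd22. At 1 h, DKO library 2 was the highest of its group for Cd79b, Cd22, Cd79a and Fcer2a.

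Low values were found for Ms4a1 in TKO cells at 2 h (0, against 1.02 to 1.14 in the other 3), Ms4a1 in WT cells at 0 h (0, against 1.76 to 2.07 in the other 3) and Cr2 in TKO cells at 2 h (1.02, against 2.17 to 2.28 in the other 3). For the second Cr2 row, with 19 reads in all, a single library differed in DKO cells at 4 h (0.839, against 0 in each of the other 3), TKO cells at 0 h (1.26, against 0 in each of the other 3), WT cells at 0 h (0, against 1.76 to 2.07 in the other 3) and WT cells at 1 h (0, against 1.08 to 1.15 in the other 3). Values of 1 or 2 reads set these gaps.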

How the results depend on the processing

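Of 89 calls of other B lineage genes over the 10 comparisons, 54 held under every alternative and 0 reversed. For DKO minus WT at 0 h, the 1 call became 5 with the deposited scaling, 3 with median-of-ratios scaling, 2 with total reads, 2 with a pseudocount of 4 and 3 with voom weights. For KO minus WT at 0 h, the 3 calls became 5 with the deposited scaling, 1 with voom weights, 1 without the 4 KO libraries that stand apart (an alternative chosen after seeing the data) and 0 with only the 2 groups fitted in limma, where 7 genes had an unadjusted p under 0.05. The cause was not tested. With voom weights the other comparisons gave 9, 16, 14 and 10 calls for 4 h minus 0 h in DKO, KO, TKO and WT cells, 14 for TKO minus WT at 0 h, and 1, 9 and 8 for DKO, KO and TKO minus WT at 4 h.

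Leaving out each library in turn gave 1 to 4 calls for DKO minus WT at 0 h, 1 to 3 for KO minus WT at 0 h, 10 to 14 for TKO minus WT at 0 h, 5 to 9 for KO minus WT at 4 h and 8 to 11 for DKO cells at 4 h minus 0 h. Counts moved by over 1.5 times without DKO library 2 at 0 h (8 calls for DKO 4 h minus 0 h, 3 for DKO minus WT), WT library 4 at 0 h (4 for DKO and 1 for KO minus WT), KO library 2 at 0 h (1), WT library 1 at 0 h (1 for KO, 10 for TKO) or WT library 3 at 0 h (1 for KO), and WT library 1 at 4 h (5 for KO).

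The deposited scaling moved the median of all genes by -0.43 to 0.27 on the log2 scale, median-of-ratios scaling by -0.16 to 0.01 and total reads by -0.21 to 0.03. No member whose libraries did not overlap changed direction, and 16 of 1020 member values moved by 1 SD or more. Tests by edgeR and DESeq2 were planned and not run. No paired analysis was possible because the lists carry no replicate numbers. Depth limits Cd79a, Ms4a1, Cr2 and Fcer2a, whose groups hold a few reads each.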
